A study of Mus musculus with 37 samples.

Results

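The CC chemokines of mouse macrophages were followed over a time course of Toll-like receptor 4 (TLR4) activation in wild-type (WT) macrophages and in macrophages lacking the clock gene Arntl, which encodes Bmal1. The 10 members, Ccl2, Ccl3, Ccl4, Ccl5, Ccl6, Ccl7, Ccl8, Ccl9, Ccl12 and Ccl22, were taken by gene symbol from a table of 24016 genes. PolyA RNA-seq libraries of bone marrow-derived macrophages (BMDMs) were labelled WT or BmalKO at 0, 6, 24 and 48 h of treatment with KLA, which gives 8 libraries of the 37 samples in the series. KLA (Kdo2-lipid A) is a purified endotoxin component that activates macrophages through TLR4. Cells came from male C57BL/6J mice and from Arntl-/- mice made on a C57BL/6 background, all 6 to 9 weeks old. They were grown from bone marrow for 6 days in M-CSF, a growth factor that drives macrophage differentiation. Both genotypes received the same KLA treatment, and the deletion is carried by every cell of the Arntl-/- mice rather than by macrophages alone. WT cells are described both as coming from littermates and as coming from purchased mice. Each of the 8 conditions was measured in 1 library, so no difference at a single time or between times has a replicate check or a p-value. Intervals cover counting error only, and do not cover the variation between cultures or mice. In a bulk library, fewer cells of a type and less RNA per cell cannot be told apart.

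Chemokines are small secreted proteins that attract leukocytes by binding G protein-coupled receptors, and the CC family is named for adjacent cysteines near its N terminus. Macrophages are a main source of them after TLR4 activation, which acts through NF-κB and interferon regulatory factors. Ccl2, Ccl7, Ccl8 and Ccl12 are monocyte chemoattractant proteins, and Ccl2, Ccl7 and Ccl12 act largely through Ccr2 on monocytes. Ccl3, Ccl4 and Ccl5 attract monocytes and T cells, and Ccl3 and Ccl5 bind Ccr1. Ccl6 and Ccl9 are rodent chemokines of the Ccr1 ligand group, which myeloid cells express without stimulation. Ccl22 attracts T cells, among them regulatory T cells, through Ccr4.

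Of the members, 9 lay on chromosome 11 and Ccl22 lay on chromosome 8 (all positions in mm9). The monocyte chemoattractant genes formed a group on the plus strand, with Ccl2 (NM_011333) at chr11:81849079-81850954, Ccl7 (NM_013654) at chr11:81859214-81861025, Ccl12 (NM_011331) at chr11:81915347-81916901 and Ccl8 (NM_021443) at chr11:81928687-81930301. After a gap of 1408979 bases came Ccl5 (NM_013653) at chr11:83339281-83344020, Ccl9 (NM_011338) at chr11:83386419-83392138, Ccl6 (NM_009139) at chr11:83401388-83406589 and Ccl3 (NM_011337) at chr11:83461345-83462880 on the minus strand, and Ccl4 (NM_013652) at chr11:83476086-83478185 on the plus strand. Ccl22 (NM_009137) was at chr8:97269584-97275288 on the plus strand. In the GENCODE annotation of the same build the transcripts of Ccl6 and Ccl9 had 4 exons and the other members had 3. No stretch of 50 bases was shared between the transcripts of different members, so reads of that length would not be divided between them. Ccl2 and Ccl6 each overlapped 1 gene on the opposite strand, and since tags on both strands were counted, signal of those partners cannot be told apart from theirs.

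The promoters are shown for the 3 chemoattractant genes that, among the members analyzed, differed most between genotypes at 48 h, and for Ccl5, the one member analyzed that was at least 1.5-fold higher at 6 h than at 0 h in both genotypes. Each line gives the 250 bases before the annotated start in mm9, read 5′ to 3′ on the gene's strand, with any match to the NF-κB consensus in capitals.
Ccl2, chr11:81848829-81849078, plus strand: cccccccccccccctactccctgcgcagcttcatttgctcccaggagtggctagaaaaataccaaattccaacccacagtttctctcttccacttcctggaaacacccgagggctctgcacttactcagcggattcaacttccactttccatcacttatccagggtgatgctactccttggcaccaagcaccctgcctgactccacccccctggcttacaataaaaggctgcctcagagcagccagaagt
Ccl7, chr11:81858964-81859213, plus strand: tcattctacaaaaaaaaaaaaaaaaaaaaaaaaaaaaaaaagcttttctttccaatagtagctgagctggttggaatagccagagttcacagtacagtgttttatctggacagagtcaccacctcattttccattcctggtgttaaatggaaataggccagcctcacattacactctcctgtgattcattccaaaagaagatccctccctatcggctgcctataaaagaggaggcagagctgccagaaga
Ccl12, chr11:81915097-81915346, plus strand: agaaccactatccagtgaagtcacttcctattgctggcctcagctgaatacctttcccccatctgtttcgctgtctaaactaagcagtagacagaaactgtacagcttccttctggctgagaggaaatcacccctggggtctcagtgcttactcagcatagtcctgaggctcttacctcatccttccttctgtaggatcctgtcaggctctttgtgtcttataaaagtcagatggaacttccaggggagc
Ccl5, chr11:83344021-83344270, minus strand: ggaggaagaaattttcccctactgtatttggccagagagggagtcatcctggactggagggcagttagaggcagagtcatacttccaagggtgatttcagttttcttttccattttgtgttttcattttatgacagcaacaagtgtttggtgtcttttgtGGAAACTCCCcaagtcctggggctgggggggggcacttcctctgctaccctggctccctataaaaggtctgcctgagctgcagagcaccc
The NF-κB consensus had a match in the Ccl5 promoter, 90 bases before the start, and in none of the 3 chemoattractant promoters shown. In windows from 250 bases before to 50 bases after the start, searched on both strands, 2 of the 10 members held it (Ccl5 and Ccl9), against 9.06% of 23951 promoters of that length. The E-box CACGTG, the form that Bmal1 and Clock bind, had a match in 0 of 10 members and in 7.75% of promoters. The AP-1 site TGANTCA was found in Ccl7 and Ccl9 (7.06% of promoters), the nuclear receptor half-site AGGTCA in Ccl3, Ccl6 and Ccl22 (14.2%), and the PU.1 core GAGGAA in 5 members (27.4%). An exact core string of the interferon-stimulated response element was found in 0 members and in 3.51% of promoters. Variants of that string were not searched, so the result does not show that a member, Ccl5 included, lacks such an element. These matches describe letters in the window and do not show that a factor binds there.

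Levels are given as scaled FPKM, which are tags per kb of exon per 10000000 reads after division by a size factor for each library, so that genes can be compared per length. A tag is the unit in which reads were counted. The libraries held 8587559 to 27036868 tags on genes, and the WT library at 6 h was the deepest. Genes counted as analyzed were the 10656 with at least 100 scaled tags in 1 or more libraries. Among the members, 8 passed this filter, while Ccl8 (at most 58 tags in a library) and Ccl22 (at most 88 tags) did not. Tags came in excess in groups of 6, so each interval counts 6 tags as 1 fragment (95%, exact). Arntl itself stood at 34.3, 32.3, 35.6 and 38.7 scaled FPKM in WT macrophages at 0, 6, 24 and 48 h, and at 13.9, 11.3, 18.8 and 20.2 in Arntl-/- macrophages, lower at each time and not absent. The 10% of genes with the highest mean level deviated with depth, from a median log2 deviation of -0.35 in the WT library at 6 h to 0.30 in the WT library at 48 h. As 6 members (Ccl2, Ccl3, Ccl4, Ccl6, Ccl7 and Ccl9) belonged to this top 10%, its median is given beside each comparison.

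The levels of the members spanned a wide range. By mean level over the 8 libraries, of which 6 were KLA-treated, Ccl2 ranked 112 of the 10656 genes analyzed, Ccl6 285, Ccl3 296, Ccl9 303, Ccl7 333, Ccl4 679, Ccl5 1794 and Ccl12 3660. In unstimulated WT macrophages the order was Ccl2 at 2415 scaled FPKM, Ccl7 at 1767, Ccl9 at 1193, Ccl6 at 1115, Ccl3 at 1111, Ccl4 at 857, Ccl12 at 245, Ccl5 at 149, Ccl8 at 5.59 and Ccl22 at 4.70. The intervals overlapped between the neighbours Ccl9 and Ccl6, Ccl6 and Ccl3, Ccl12 and Ccl5, and Ccl8 and Ccl22, and did not overlap between the others. At 48 h the order had changed. Ccl6 came next to Ccl2 in WT macrophages, at 1708 and 1843 scaled FPKM with overlapping intervals, and stood above Ccl2 in Arntl-/- macrophages, at 1513 and 1128.

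**Figure D1:**
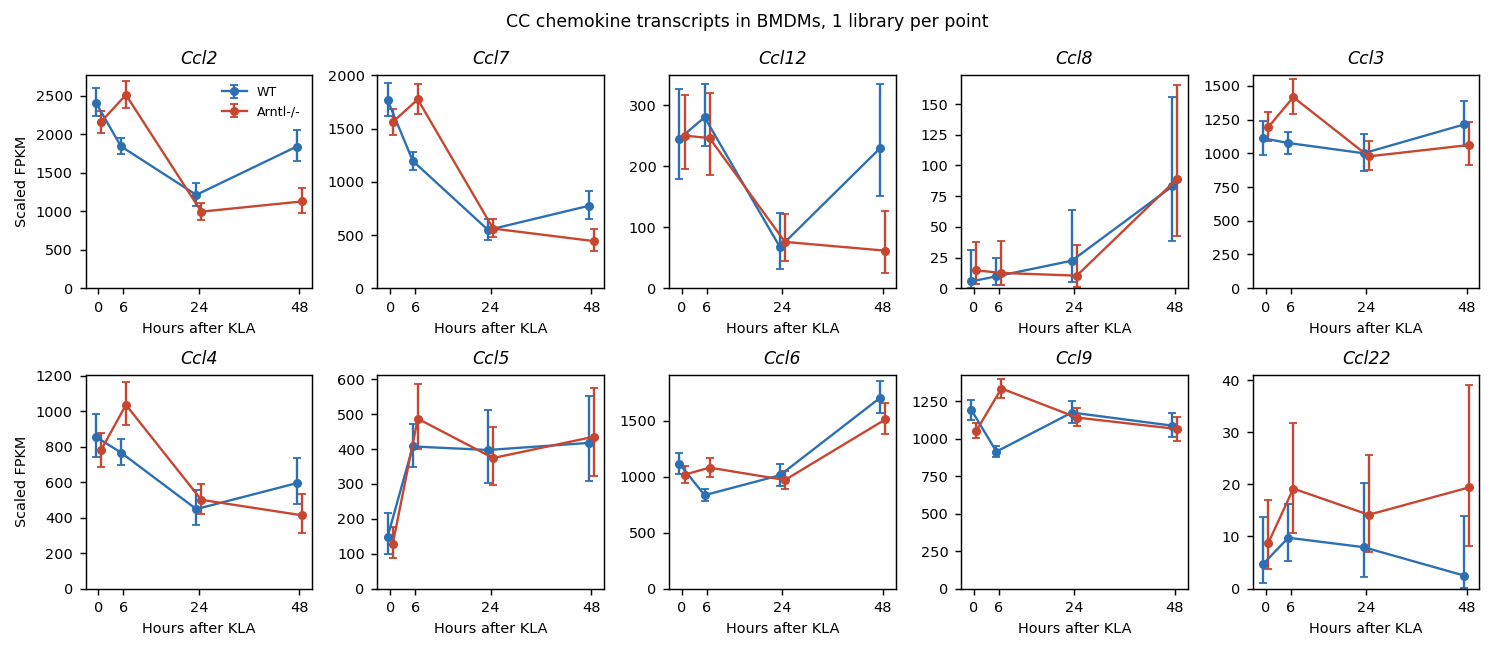
Scaled FPKM (y axis, from 0, a scale of its own in each panel) of the 10 CC chemokines against hours after KLA (x axis) in WT (blue) and Arntl-/- (red) macrophages, 1 library per point and shifted slightly sideways so that both can be seen. Bars are 95% exact counting intervals with 6 tags taken as 1 fragment, and Ccl2, Ccl7 and Ccl12 separate at 48 h while for Ccl5 the interval of the genotype ratio includes 0 at each time.

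The first question was how these genes behaved after TLR4 activation in WT macrophages. From 0 to 6 h only Ccl5 was at least 1.5-fold higher among the 8 members analyzed, against a background of 5.66% of all genes higher. Ccl2, Ccl7, Ccl3 and Ccl4 already stood at 857 to 2415 scaled FPKM before KLA and did not exceed that level by 1.5-fold at 6 h. From 6 to 24 h, 4 members were at least 1.5-fold lower (Ccl2, Ccl7, Ccl12 and Ccl4; background 8.64%). From 24 to 48 h, 3 members were at least 1.5-fold higher (Ccl2, Ccl12 and Ccl6; background 8.34%), and Ccl12 alone stayed past 1.5-fold with size factors from the top 10% of genes or after correction for expression level. The median log2 change of the 8 members over these intervals was -0.27, -0.36 and 0.45, beside -0.34, 0.44 and 0.20 for the top 10% of genes and -0.02, 0.00 and 0.02 for all genes analyzed.

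In Arntl-/- macrophages the members past 1.5-fold up to 24 h were the same genes. From 0 to 6 h, Ccl5 was the only member at least 1.5-fold higher (background 3.38%). From 6 to 24 h the 4 members past 1.5-fold were Ccl2, Ccl7, Ccl12 and Ccl4, all lower (background 6.27%). From 24 to 48 h Ccl6 alone was past 1.5-fold, and higher (background 7.51%). With size factors from the top 10% of genes this became 3 members lower (Ccl7, Ccl12 and Ccl4), beside 2617 of 10682 genes lower and 309 higher under that scaling, and with values as deposited 0. After correction for expression level Ccl6 (0.28) was no longer past 1.5-fold, and Ccl7 was instead, in the lower direction (-0.65). The medians of the 8 members were 0.23, -0.79 and 0.01, beside 0.18, -0.04 and 0.28 for the top 10% and 0.00, 0.00 and -0.02 for all genes analyzed. Because the WT library at 6 h stood apart in depth, the 24 h libraries were also set against 0 h. The 4 genes lower at 24 h were then Ccl2, Ccl7, Ccl12 and Ccl4 in both genotypes, and Ccl5 was higher in both. The top 10% of genes gave a median of 0.11 in WT and 0.15 in Arntl-/- macrophages over this interval. The background of this comparison was 8.92% lower and 8.84% higher in WT macrophages, and 9.69% lower and 8% higher in Arntl-/- macrophages.

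The second question was whether deletion of Arntl changed the level at a given time. At 0, 6 and 24 h, 0 of the 8 members analyzed differed by 1.5-fold in either direction, where 5.64%, 5.02% and 7.29% of all genes did. At 48 h, 3 members were at least 1.5-fold lower in Arntl-/- macrophages, all of them monocyte chemoattractants (Ccl2, Ccl7 and Ccl12), and 0 were higher. Of all genes analyzed, 5.88% were lower and 6.59% higher by that size at 48 h. The median log2 ratio of the 8 members was -0.15, 0.41, -0.04 and -0.36 at the 4 times. The top 10% of genes gave -0.17, 0.33, -0.14 and -0.05, and all genes analyzed gave -0.01, 0.01, 0.00 and -0.02. The median of the members was thus 0.41 beside 0.33 for the top 10% at 6 h, and -0.36 beside -0.05 at 48 h, where Ccl5 (0.06) and Ccl9 (-0.03) lay above the median of the top 10%. No member analyzed differed by 1.5-fold in the same direction at all 4 times, as 16 genes did upward (0.15%) and 14 downward (0.131%).

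**Figure D2:**
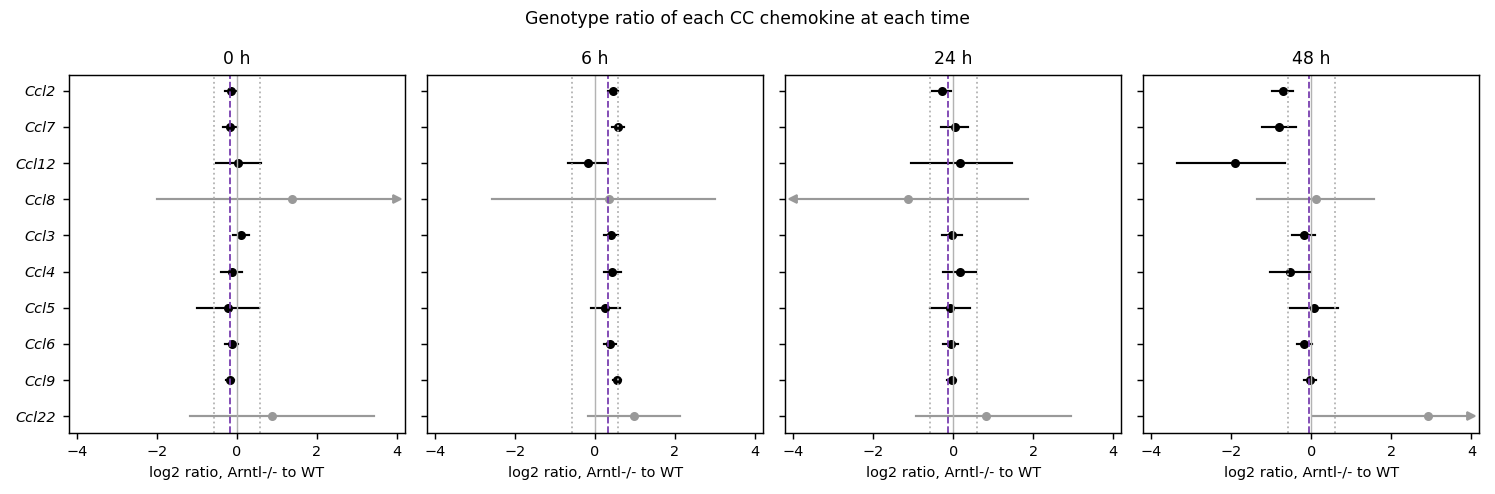
Log2 ratio of scaled FPKM in Arntl-/- over WT macrophages (x axis) for each CC chemokine (y axis) at 0, 6, 24 and 48 h, with 95% exact counting intervals that take 6 tags as 1 fragment (arrowheads: interval runs past the axis; grey: below the filter on low values). Dotted lines mark 1.5-fold and the dashed purple line the median of the top 10% of genes; at 6 h most members lie near that line, and at 48 h Ccl2, Ccl7 and Ccl12 lie below it.

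Ccl2, the main attractant of inflammatory monocytes, was the most abundant member at 0 h in both genotypes. It stood at 2415, 1846, 1214 and 1843 scaled FPKM in WT macrophages at 0, 6, 24 and 48 h, and at 2161, 2515, 996 and 1128 in Arntl-/- macrophages. By these values both genotypes were lowest at 24 h, and the WT level at 48 h was near that at 6 h. The nearness depended on the scaling, since the deposited WT values were 2077 FPKM at 6 h and 1691 at 48 h. The WT log2 change after 24 h was 0.60, and at the lowest 0.29 over the scalings tried. The Arntl-/- change after 24 h was 0.18 (interval -0.08 to 0.44), and at the lowest -0.28 over the scalings. Whether the Arntl-/- low lay at 24 or 48 h thus depended on the scaling. At 48 h Ccl2 was 1.63-fold lower in Arntl-/- macrophages (log2 ratio -0.71, interval -0.97 to -0.45), which placed it at the 4.01 percentile of all genes analyzed. The ratios at 0, 6 and 24 h were -0.16, 0.45 and -0.29. The 6 h value became -0.03 once each library was corrected for expression level, so its direction was not kept.

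Ccl7 attracts monocytes and other leukocytes and lies next to Ccl2 on the chromosome. It stood at 1767, 1197, 547 and 774 scaled FPKM in WT macrophages and at 1561, 1774, 561 and 443 in Arntl-/- macrophages. The genotypes were near each other at 0 and 24 h, Arntl-/- macrophages were higher at 6 h, and WT macrophages were higher at 48 h. At 48 h the level was 1.75-fold lower in Arntl-/- macrophages (log2 ratio -0.80, interval -1.23 to -0.39). Its log2 change from 24 to 48 h was 0.50 (0.14 to 0.86) in WT and -0.34 (-0.75 to 0.05) in Arntl-/- macrophages, the latter interval reaching 0. The ratio at 6 h was 0.57 and lay between 0.21 and 0.57 under the scalings tried.

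Ccl12, a mouse chemokine close to Ccl2, showed the largest genotype difference at 48 h among the 8 members analyzed. It stood at 245, 280.2, 67.5 and 230.1 scaled FPKM in WT macrophages and at 250.2, 246, 75.9 and 61.6 in Arntl-/- macrophages. Both genotypes started alike, were lower at 24 h by a log2 change from 6 h of -2.05 (-3.15 to -1.13) in WT and -1.69 (-2.58 to -0.89) in Arntl-/- macrophages, and parted at 48 h. The WT level at 48 h was close to its level at 0 h, with a log2 change from 24 h of 1.77 (0.68 to 2.98), while in Arntl-/- macrophages the change was -0.30 (-1.82 to 1.04). At 48 h Ccl12 was thereby 3.73-fold lower in Arntl-/- macrophages (log2 ratio -1.90, interval -3.34 to -0.67), at the 0.328 percentile of all genes analyzed. These values rest on 163 tags in the WT and 42 tags in the Arntl-/- library at 48 h.

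Ccl8, the remaining monocyte chemoattractant of the group, lies beside Ccl12 and had few tags. It stood at 5.59, 9.71, 22.4 and 83.0 scaled FPKM in WT macrophages and at 14.6, 12.4, 10.3 and 89.2 in Arntl-/- macrophages, from 6 to 58 tags per library. The highest level was at 48 h in both genotypes. From 24 to 48 h the log2 change was 1.88 (-0.07 to 4.32) in WT and 3.11 (0.94 to 6.19) in Arntl-/- macrophages. At 48 h the genotypes differed by a log2 ratio of 0.11 (-1.35 to 1.57), an interval that includes 2-fold differences in either direction.

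**Figure D3:**
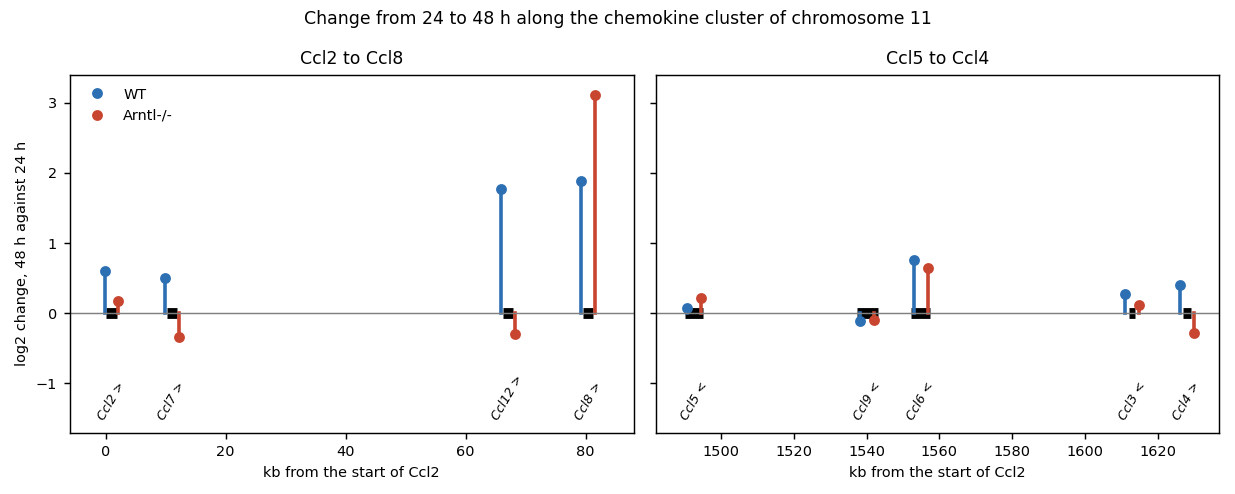
Log2 change from 24 to 48 h (y axis) in WT (blue) and Arntl-/- (red) macrophages for the 9 members on chromosome 11, drawn at their distance from the start of Ccl2 in kb (x axis, in 2 stretches with the gap left out). Black boxes are the genes, and arrows after the names give the strand; the values of Ccl7, Ccl12 and Ccl4 have opposite signs in the genotypes, with intervals that include 0 in Arntl-/- macrophages and, for Ccl4, in WT macrophages, and those of Ccl8 are positive in both, with an interval that includes 0 in WT macrophages.

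Ccl3 and Ccl4 encode MIP-1α and MIP-1β, which attract monocytes and T cells. Ccl3 stood at 1111, 1076, 1000.1 and 1214 scaled FPKM in WT macrophages and at 1193, 1416, 977 and 1061 in Arntl-/- macrophages. Its highest level was 1.45 times its lowest, the narrowest range of the 10 members. At 48 h the ratio of Arntl-/- to WT was -0.19 (-0.49 to 0.10) on the log2 scale, which includes 0. Ccl4 stood at 857, 768, 448 and 595 scaled FPKM in WT macrophages and at 779.7, 1037, 501 and 414 in Arntl-/- macrophages. Its course resembled that of Ccl7, with a low at 24 h in WT macrophages and at 48 h in Arntl-/- macrophages. At 48 h Ccl4 was 1.44-fold lower in Arntl-/- macrophages (log2 ratio -0.52, interval -1.03 to -0.03), short of 1.5-fold.

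Ccl5 (RANTES), which attracts T cells and monocytes and is a known target of NF-κB and interferon regulatory factors, was past 1.5-fold from 0 to 6 h in both genotypes. It stood at 149, 407, 397 and 418 scaled FPKM in WT macrophages and at 127, 487, 374 and 435 in Arntl-/- macrophages. In both genotypes all treated libraries lay above the untreated one. From 0 to 6 h the log2 change was 1.45 (0.87 to 2.09) in WT macrophages and 1.94 (1.38 to 2.54) in Arntl-/- macrophages, with overlapping intervals. The genotype ratios were -0.23, 0.26, -0.09 and 0.06 on the log2 scale at 0, 6, 24 and 48 h, and each interval included 0. At 48 h the interval ran from -0.54 to 0.66, which includes differences of 1.5-fold upward.

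Ccl6 and Ccl9 are Ccr1 ligands that lie next to each other. Ccl6 stood at 1115, 835, 1013 and 1708 scaled FPKM in WT macrophages and at 1019, 1081, 971 and 1513 in Arntl-/- macrophages. The highest level was at 48 h in both genotypes, with a log2 change from 24 h of 0.75 (0.57 to 0.94) in WT and 0.64 (0.46 to 0.82) in Arntl-/- macrophages. The top 10% of genes also went up over that interval, by 0.20 and 0.28. Over the scalings tried the lowest value of the change was 0.52 in WT and 0.28 in Arntl-/- macrophages, short of 1.5-fold. Ccl9 stood at 1193, 914, 1175 and 1088 scaled FPKM in WT macrophages and at 1054, 1335, 1142 and 1065 in Arntl-/- macrophages. At 48 h its ratio was -0.03 (-0.18 to 0.12), the narrowest interval among the members at that time.

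Ccl22, a Ccr4 ligand best known from dendritic cells and alternatively activated macrophages, had few tags and stood higher in Arntl-/- macrophages at all 4 times. It stood at 4.70, 9.75, 7.93 and 2.49 scaled FPKM in WT macrophages (18, 86, 24 and 6 tags) and at 8.69, 19.2, 14.1 and 19.4 in Arntl-/- macrophages (49, 88, 64 and 45 tags). The ranges of the genotypes overlapped, since WT macrophages at 6 h exceeded Arntl-/- macrophages at 0 h. The log2 ratios were 0.87, 0.97, 0.83 and 2.91, and only the interval at 48 h (0.03 to 8.44) excluded 0. The 6 tags of WT macrophages at 48 h may come from 1 fragment. The mean log2 ratio over the 4 times was 1.40, and 0.89 without 48 h.

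Averaged over the 4 times, the mean log2 ratio was -0.18 for Ccl2, -0.09 for Ccl7 and -0.47 for Ccl12, of which Ccl12 lay at the 1.75 percentile and Ccl2 at the 11.6 percentile of all genes analyzed. Without 48 h these became 0.00, 0.14 and 0.00, so the difference of the 3 chemoattractants rested on the 48 h pair of libraries. For Ccl3, Ccl4, Ccl5, Ccl6 and Ccl9 the mean lay between -0.02 and 0.07, and with 1 of the times left out between -0.17 for Ccl4 and 0.16 for Ccl9, and each of the 5 means changed sign with at least 1 time left out. Ccl8, below the filter, gave 0.18, and between -0.22 and 0.61 when 1 of the times was left out. In a fit of genotype over the 8 libraries with time as a block (limma, 3 residual degrees of freedom, added after seeing the data), 0 of the 8 members analyzed had an adjusted p under 0.05 and 0 an unadjusted p under 0.05, where 0.282% of all genes were called. The lowest adjusted p among the members was 0.681, for Ccl12 (log2 ratio -0.47, SE 0.26), which was higher in WT macrophages at 2 of 4 times. That fit takes a difference present at 1 time alone as part of its error, so it does not test the 48 h ratios.

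**Figure D4:**
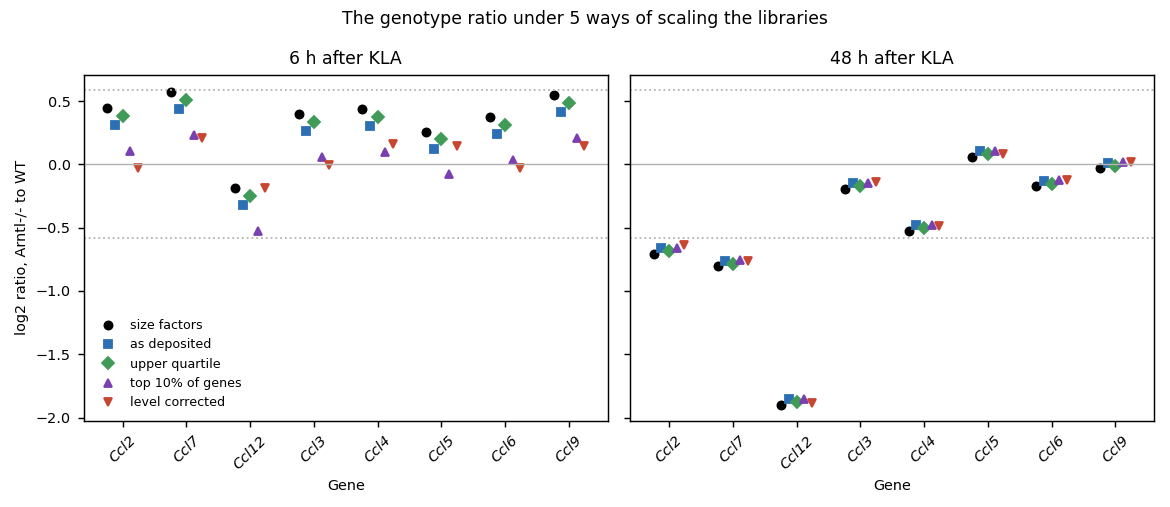
Log2 ratio of Arntl-/- over WT macrophages (y axis) for the 8 members analyzed (x axis) at 6 and 48 h under 5 ways of scaling the libraries: size factors from all genes, values as deposited, the upper quartile, size factors from the top 10% of genes, and a correction for expression level. Dotted lines mark 1.5-fold; at 6 h the ratios of Ccl2, Ccl3, Ccl5 and Ccl6 reach or cross 0 under a scaling, and at 48 h Ccl2, Ccl7 and Ccl12 stay below the lower line under all 5.

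The 48 h difference of the chemoattractants kept its size under every scaling tried. Over the alternatives the log2 ratio at 48 h ran from -0.71 to -0.64 for Ccl2, from -0.80 to -0.76 for Ccl7, from -1.90 to -1.85 for Ccl12 and from -0.52 to -0.48 for Ccl4. The 48 h libraries were also the shallowest of the series of 8, with 9191158 tags in WT and 8587559 in Arntl-/- macrophages. By contrast the 6 h ratios of the abundant members depended on the scaling, and after correction for expression level they were -0.03 for Ccl2, 0.00 for Ccl3 and -0.03 for Ccl6, and 0.21, 0.16 and 0.15 for Ccl7, Ccl4 and Ccl9.

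The members did not all vary together. Over the 8 libraries Pearson's r of log2 scaled FPKM was 0.98 for Ccl7 and Ccl4, 0.95 for Ccl2 and Ccl7, 0.93 for Ccl2 and Ccl4, and 0.92 for Ccl2 and Ccl12. Ccl5 gave -0.53 to -0.35 with these 4 genes, while Ccl6 and Ccl8 gave 0.83. The 8 points share genotype, time and depth, so these values are a description only. Among the other genes analyzed, those most like Ccl2 were Bcl2l1 (0.985) and Cnih1 (0.978), those most like Ccl7 were Ippk (0.997) and Psd4 (0.990), and those most like Ccl12 were Ttc7b (0.980) and Pla2g4a (0.978). Pla2g4a encodes cytosolic phospholipase A2, which releases arachidonic acid. For Ccl5 they were Slamf8 (0.970) and Rsad2 (0.966), the latter an interferon-stimulated gene, and for Ccl6 they were Mmp12 (0.992), the macrophage elastase, and Tmsb10 (0.990). The pair was Hars (0.980) and Ippk (0.979) for Ccl4, Emg1 (0.939) and Eif3i (0.932) for Ccl3, and Metrnl (0.946) and H3f3b (0.924) for Ccl9. For the members below the filter it was Gng11 (0.986) and Serpinf1 (0.971) for Ccl8, and Cdk10 (0.957) and Zfp935 (0.949) for Ccl22.

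Of the other CC ligands, 14 were listed and 14 were in the table, of which 0 passed the filter and 7 had 3 or fewer tags in every library. Of 9 CC receptors examined, 1 passed. Ccr1, a receptor for Ccl3, Ccl5, Ccl6 and Ccl9, stood at 226, 219, 209.9 and 180.0 scaled FPKM in WT macrophages and at 287, 276, 291 and 210.4 in Arntl-/- macrophages, with log2 ratios of 0.22 to 0.47. It was within 1.5-fold between genotypes at each time. Ccr2, the receptor of Ccl2, Ccl7 and Ccl12, was below the filter, at 4.00 to 5.02 scaled FPKM in WT and 1.09 to 7.80 in Arntl-/- macrophages. Ccr4, the receptor of Ccl22, had at most 1 tag in any library. Of 6 atypical and related receptors Ccrl2 alone passed, at 51.3, 105, 119 and 95.7 scaled FPKM in WT and 62.0, 111, 109 and 118 in Arntl-/- macrophages.

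Of 18 genes of TLR4 signaling, NF-κB, interferon regulatory factors and mRNA control, 18 passed the filter, and 2 were at least 1.5-fold different between genotypes. Both were the REV-ERB genes, nuclear receptors that repress transcription and are direct targets of Bmal1. Nr1d1 stood at 44.5, 33.9, 26.2 and 37.0 scaled FPKM in WT macrophages and at 19.6, 12.6, 10.0 and 16.7 in Arntl-/- macrophages. Nr1d2 stood at 70.6, 60.2, 95.4 and 90.2 in WT and at 6.15, 3.23, 2.76 and 3.70 in Arntl-/- macrophages. Neither pair of ranges overlapped, with log2 ratios of -1.42 to -1.15 for Nr1d1 and -5.06 to -3.50 for Nr1d2. The 16 other genes, among them Tlr4, Cd14, Myd88, Rela and Nfkbia, were within 1.5-fold at each time, the 48 h pair included. At 48 h the mRNA control genes Zfp36, Zfp36l1 and Elavl1 had log2 ratios of 0.51, 0.53 and 0.46, close to 1.5-fold. At 0, 6 and 24 h their ratios lay between -0.28 and 0.23.

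All 9 macrophage markers passed the filter, with sums of 16036 to 39202 scaled FPKM in WT and 18017 to 35171 in Arntl-/- macrophages. Markers of dendritic cells (0 of 6 passing, sums of 4.73 to 10.9), of T, NK and B cells (1 of 9, Cd4, sums of 6.23 to 18.4) and of mast cells, basophils and eosinophils (0 of 6, sums of 1.10 to 3.66) were low in all libraries. Neutrophil markers, of which 4 of 8 in the table passed, summed to 528, 547, 622 and 928 in WT and 947, 1033, 859.5 and 943 in Arntl-/- macrophages. The 4 that passed were S100a8, S100a9, Ngp and Ltf. Of these, 3, 4, 2 and 1 were at least 1.5-fold higher in Arntl-/- macrophages at 0, 6, 24 and 48 h, with 0 lower. Of all genes analyzed, 5.64%, 5.02% and 7.29% were past 1.5-fold in either direction at 0, 6 and 24 h. At 48 h 6.59% were higher. The marker higher at 48 h was Ngp, with 0 scaled FPKM in WT macrophages, so the pseudocount sets the size of its ratio. At 0 h S100a9 stood at 164 in WT and 403 in Arntl-/- macrophages, Ngp at 37.2 and 83.4, and Ltf at 18.9 and 42.4. The 48 h sums were nearly all S100a8 (910.3 and 905), while S100a9 stood at 10.1 and 9.00, Ngp at 0 and 2.70, and Ltf at 0 in both. Of the markers below the filter, Mpo and Elane had at most 2 tags in any library. In the stromal and endothelial list 7 of 8 passed, and the sums were 453, 533, 583 and 1112 in WT and 358, 379.6, 418 and 696 in Arntl-/- macrophages. The 3 collagens of the list were at least 1.5-fold lower in Arntl-/- macrophages at 48 h, as were 5.88% of all genes analyzed. Col1a1 stood at 525 in WT and 289 in Arntl-/- macrophages, Col1a2 at 292 and 181, and Col3a1 at 187 and 89.7. The other markers that passed were within 1.5-fold, with 48 h log2 ratios of -0.27 for Kdr, 0.01 for Pdgfrb, 0.19 for Pecam1 and 0.55 for Dcn. The sums, most of which the collagens made up, were lower in Arntl-/- macrophages also at 0, 6 and 24 h. At these times 2, 1 and 2 of the 7 that passed were at least 1.5-fold lower, and 1, 0 and 1 higher. Those higher were Dcn at 0 h (log2 ratio 1.21) and Pecam1 at 24 h (0.68). The part of these cells in the chemokine levels was not tested.

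**Figure D5:**
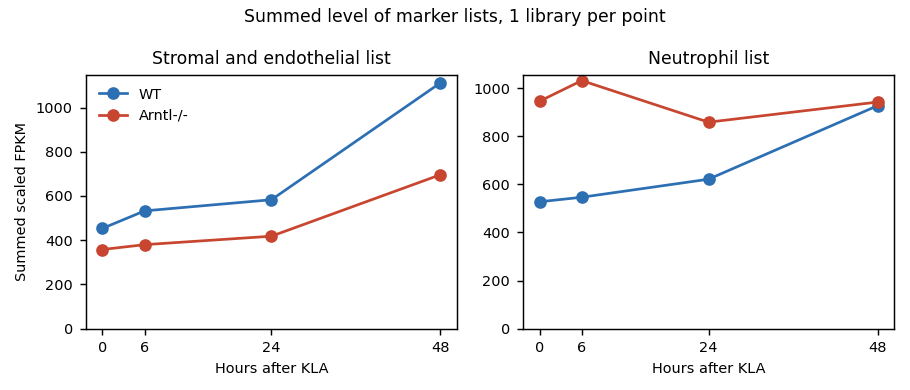
Summed scaled FPKM (y axis, from 0) of the stromal and endothelial and the neutrophil lists against hours after KLA (x axis) in WT (blue) and Arntl-/- (red) macrophages, 1 library per point. The stromal and endothelial sum reaches 1112 in WT and 696 in Arntl-/- macrophages at 48 h and is higher in WT at each time, and the neutrophil sum is higher in Arntl-/- macrophages at each time and nearly equal at 48 h.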

How the data were processed

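PolyA RNA of BMDMs was sequenced as paired-end reads. Alignment to mm9 was done by the authors with STAR, and tags on RefSeq exons were counted on both strands with HOMER, set to 3 tags per position. The FPKM deposited are per 10000000 reads, per the file headers (versions not given in the sources used here). A further 4 value columns belong to no sample of the series and were not used, and 1 broken line was dropped. The ChIP-seq samples were not analysed here. Of the listed receptors 1 is not reported here.

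The product of FPKM and length was a whole number of steps, 1 step per tag, for 100% of low values (tolerance 0.1 tag, up to 30 tags), so tags and depth could be recovered. They describe depth and counting error only. Size factors by the median of ratios over the 8 libraries (0.918 to 1.13) were used for scaling. Log2 ratios used a pseudocount of 0.1, which understates changes of low genes, and were counted past 1.5-fold over the genes with at least 100 scaled tags in 1 or more libraries. Single conditions were compared without a test, and genotype over all times with a limma fit that had time as a block and a moderated variance with trend. Genes with exactly 6 tags were 2.99 to 4.17 times as frequent as the mean of those with 5 and 7, so intervals (exact conditional binomial for ratios, Poisson for levels, 95%) were computed on tags divided by 6, a choice made after seeing the data. On simulated data with 200 genes changed 2-fold among 24016, the count of genes past 1.5-fold in the same direction at all 4 times found 100% of them and 0 unchanged genes. The simulated tags were independent Poisson counts from 1 shared profile, and the changed genes were taken from those with many tags. They had no change over time, no groups of 6 tags, no deviation with depth and no variation between cultures. The result thus checks the code and gives no error rate for the real libraries. Calls at a single time were not simulated.

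The members and lists were chosen with earlier results of these data known. Genes named are the 10 members, Arntl, the listed ligands and receptors that passed the filter, the listed signaling genes past 1.5-fold, and the 2 genes with the highest r to each member. Ccr2, Ccr4, the lineage markers and the signaling and mRNA control genes within 1.5-fold were named after their values were seen. Alternatives tried were no size factors, scaling by the upper quartile, size factors from the top 10% of genes, a lowess correction for expression level (fraction 0.3), pseudocounts of 0.01 and 1, 2-fold, and other filters on low values. Promoters were read from mm9 at the deposited starts, and transcripts from GENCODE. The tools were pandas 2.3.3 and numpy 2.4.6 under Python 3.11.15, with intervals from scipy 1.17.1 lowess curves from statsmodels 0.14.6, and limma 3.58.1 under R 4.3.3.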

Additional observations from a re-analysis of the deposited data

Results flagged for a closer look

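From 24 to 48 h the log2 change of Ccl12 had opposite signs in the genotypes, with a value of 1.77 in WT macrophages and -0.30 in Arntl-/- macrophages, 1 library each. It drew attention because it was past 1.5-fold in WT macrophages and of opposite sign in Arntl-/- macrophages. The difference was not tested, since each condition had 1 library, and the counting interval of the Arntl-/- change (-1.82 to 1.04) included 0.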

How the results depend on the processing

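The limits are those of 1 library per condition, of unequal depth, and of tags that are not independent molecules. Without the filter on low values, and likewise with FPKM of at least 1, the counts of members past 1.5-fold took in Ccl8 and Ccl22. Between genotypes they became 2 at 0 h, 1 at 6 h and 2 in the 24 h pair (1 higher, 1 lower). For all 4 times together the count became 1. In WT macrophages they became 3 for 0 to 6 h and 5 for 24 to 48 h (4 higher, 1 lower). In Arntl-/- macrophages they became 2 for 0 to 6 h and 2 for 24 to 48 h. The share of all genes past 1.5-fold rose with them. At 0 h it went from 5.64% to 17.2% without the filter and 21.6% with FPKM of at least 1. In the same order the 24 h pair went from 7.29% to 17.2% and 22.3%. The 6 h pair went from 5.02% to 18.2% and 20.8%. In WT macrophages the shares were 19.9% and 24.5% for 0 to 6 h, and 22.0% and 30.8% for 24 to 48 h. In Arntl-/- macrophages they were 18.8% and 22.7% for 0 to 6 h, and 23.3% and 30.8% for 24 to 48 h. For all 4 times together the share under these filters is not given. With size factors from the top 10% of genes the count for 24 to 48 h became 1 in WT and 3 in Arntl-/- macrophages, the 3 being lower, where 21.5% and 27.4% of all genes were past 1.5-fold, 1839 and 2617 of them lower and 453 and 309 higher. The correction for expression level left 1 for 24 to 48 h in WT macrophages, beside 17.5% of all genes. The values as deposited left 0 for 24 to 48 h in Arntl-/- macrophages, beside 17.9% of all genes. At 2-fold, 1 member (Ccl12) remained at 48 h between genotypes, beside 3.84% of all genes. In WT macrophages 2 remained for 6 to 24 h (3.41% of all genes) and 1 for 24 to 48 h (6.41%). In Arntl-/- macrophages 0 remained for 24 to 48 h (5.38%). The causes were not tested. The other 98 counts under alternatives lay within 1.5 times the reported ones, although for 24 to 48 h in Arntl-/- macrophages the correction for expression level turned 1 higher (Ccl6) into 0 higher and 1 lower (Ccl7). They included the 3 at 48 h under each scaling and pseudocount, and with the condition, added after seeing the data, that the interval exclude 0. Set against 0 h instead of 6 h, also added after seeing the data, 4 members were lower and 1 higher at 24 h in both genotypes. Values as deposited moved the median of all genes at 6 h to -0.13, and size factors from the top 10% moved it to 0.18, -0.33, 0.16 and 0.03 at the 4 times. Leaving out each time in turn, the mean log2 ratio ran from -0.38 to 0.00 for Ccl2, from -0.32 to 0.14 for Ccl7, from -0.69 to 0.00 for Ccl12 and from 0.89 to 1.58 for Ccl22. No correction for the setting of 3 tags per position was run, as members reached 9.02 tags per base, above the 6 that 3 on each of 2 strands would allow. The comparison of protein sequences was not run. The fit with time as a block, added after seeing the data, paired the genotypes by time and left the mean log2 ratios as they were (-0.47 for Ccl12), with 0 members called. No such fit was possible for a single time, with 1 library per condition.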

Other observations

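The members differed in a feature of mRNA turnover. ATTTA, the core of the AU-rich elements through which proteins such as tristetraprolin bind and destabilize mRNA, was counted in the 3′ UTR of 1 GENCODE transcript per member. Ccl12, Ccl3 and Ccl9 held 5 each, Ccl6 held 4, Ccl7, Ccl4 and Ccl22 held 2 each, Ccl2 held 1, and Ccl8 and Ccl5 held 0. Of 43420 transcripts with a 3′ UTR, 54.8% held at least 1 and 12.9% at least 5.

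Zfp36, which encodes tristetraprolin, stood at 319, 442, 429.6 and 313 scaled FPKM in WT and at 343, 517, 357 and 445 in Arntl-/- macrophages, within 1.5-fold between genotypes at each time. Irf7, an interferon regulatory factor that is itself induced by interferon, stood at 237, 406, 735 and 1172 in WT and at 282, 499, 789.6 and 1189 in Arntl-/- macrophages, so it was higher at each later time in both genotypes, as Ccl5 was relative to 0 h. Both genes were named here after their values were seen.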
